A study of Mus musculus with 8 samples.

Results

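Claudins, cadherins and the other proteins of epithelial cell junctions were followed in organoids of mouse embryonic stomach, in cultures that carried an active form of YAP and in control cultures. The genes were taken by symbol: every row of the count table named as a claudin, a numbered cadherin, a desmoglein, desmocollin, plakophilin or plakoglobin, desmoplakin, a zonula occludens protein, an occludin family member, a junctional adhesion molecule, cingulin, a nectin, afadin, a catenin or a connexin. These were 101 of 56691 rows. They comprised 26 claudins, 11 other tight junction proteins, 23 cadherins, 6 catenins, 5 nectins and afadin, 15 desmosome proteins and 15 connexins. Of the 101 genes, 50 had enough counts for a test, 30 had counts below the filter and 21 had 0 counts in all 8 libraries.

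The organoids, 3-dimensional epithelial cultures, were grown from the hindstomach, the glandular part of the stomach, of embryos at embryonic day 18.5. The YAP5SA cultures had the genotype Shh-Cre;YAP5SA (n = 4) and the control cultures Shh-Cre (Ctrl, n = 4), so all 8 carried the Shh-Cre allele. Shh-Cre expresses Cre recombinase from the Shh locus, which is active in gut endoderm, and YAP5SA is a form of the Hippo pathway coactivator YAP with its inhibitory phosphorylation sites mutated. Growth medium was given for 5 days and differentiation medium for the 7 days after, in all cultures. The labels name no embryos, litters or culture days, so the spread that p-values are set against is that between these 8 samples and may be technical.

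Epithelial cells are held together by tight junctions, adherens junctions and desmosomes, and exchange small molecules through gap junctions. In tight junctions, claudins form the paracellular seal and its ion pores, occludin and its relatives lie beside them in the membrane, and zonula occludens proteins anchor both to actin. In adherens junctions, cadherins bind across the gap between cells and hold the catenins encoded by Ctnnb1 and Ctnnd1 by their tails, and alpha-catenin, encoded by Ctnna1, links them to actin. The gastric surface epithelium is known for a high level of Cldn18, and YAP itself is restrained by cell contact through several junction proteins.

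Promoter sequences are shown for the 5 genes on which the description of claudins and connexins turns, to place their starts. They come from the RefSeq tables for GRCm38.p6, which hold 250 bases before to 50 bases after a start. Of the 101 genes, 63 matched, with 85 promoters. Capitals mark matches, on either strand, to GGAATG, the letters of the TEAD factors that carry YAP to DNA, or to TGANTCA, the letters of AP-1. The entries shown are Cldn4 (chr5:134946885-134947184, minus strand), Cldn3 (chr5:134985964-134986263, plus strand), Cldn18 (chr9:99717218-99717517, minus strand for the upstream start and chr9:99710014-99710313, minus strand for the downstream start), Gja1 (chr10:56377050-56377349, plus strand) and entry 4 of Gjb1 (chrX:101383482-101383781, plus strand). Gjb1 has 4 entries, and entry 4 alone ends within a GENCODE M21 transcript of the gene, as the Cldn3, Cldn4 and Cldn18 entries do and the Gja1 entry does not.
Cldn4: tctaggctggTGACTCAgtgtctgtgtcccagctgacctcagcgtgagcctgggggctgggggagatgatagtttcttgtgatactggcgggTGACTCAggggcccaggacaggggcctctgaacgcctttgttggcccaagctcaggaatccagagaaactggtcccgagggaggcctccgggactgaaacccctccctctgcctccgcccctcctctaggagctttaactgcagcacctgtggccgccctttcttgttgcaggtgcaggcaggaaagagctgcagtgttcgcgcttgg
Cldn3: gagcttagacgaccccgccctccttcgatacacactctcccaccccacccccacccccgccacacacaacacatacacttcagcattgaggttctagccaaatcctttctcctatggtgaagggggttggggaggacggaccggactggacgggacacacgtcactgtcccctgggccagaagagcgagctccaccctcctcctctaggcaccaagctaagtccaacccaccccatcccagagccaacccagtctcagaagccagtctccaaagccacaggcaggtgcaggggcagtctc
Cldn18 upstream start: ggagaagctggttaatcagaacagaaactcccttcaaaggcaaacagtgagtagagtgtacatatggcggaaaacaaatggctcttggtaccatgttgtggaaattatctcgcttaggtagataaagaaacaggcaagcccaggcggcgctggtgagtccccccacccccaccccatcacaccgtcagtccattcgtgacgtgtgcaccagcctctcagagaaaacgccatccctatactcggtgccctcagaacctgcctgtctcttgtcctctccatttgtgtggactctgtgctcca
Cldn18 downstream start: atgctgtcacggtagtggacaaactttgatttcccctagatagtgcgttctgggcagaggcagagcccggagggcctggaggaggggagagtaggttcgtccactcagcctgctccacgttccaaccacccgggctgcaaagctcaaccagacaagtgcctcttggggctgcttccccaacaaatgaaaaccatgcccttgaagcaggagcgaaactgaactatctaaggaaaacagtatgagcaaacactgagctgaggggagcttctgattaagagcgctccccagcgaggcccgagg
Gja1: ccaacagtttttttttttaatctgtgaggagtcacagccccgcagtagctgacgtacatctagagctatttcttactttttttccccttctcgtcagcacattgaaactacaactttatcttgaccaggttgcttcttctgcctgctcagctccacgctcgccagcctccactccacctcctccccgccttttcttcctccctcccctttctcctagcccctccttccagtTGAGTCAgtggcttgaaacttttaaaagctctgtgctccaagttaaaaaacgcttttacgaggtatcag
Gjb1 entry 4: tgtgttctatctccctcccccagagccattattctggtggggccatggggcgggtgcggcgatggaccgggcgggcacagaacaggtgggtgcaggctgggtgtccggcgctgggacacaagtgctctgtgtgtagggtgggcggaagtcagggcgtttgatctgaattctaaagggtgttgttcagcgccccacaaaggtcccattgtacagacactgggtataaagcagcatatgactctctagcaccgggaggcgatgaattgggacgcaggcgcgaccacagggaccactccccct

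The Cldn4 promoter held TGACTCA at positions -240 and -158, counted from 0 at the start, and the Gja1 promoter held TGAGTCA at -19. Neither set of letters was in the windows of Cldn3 and Cldn18 or in the Gjb1 entry shown. Of the 3 other Gjb1 entries, 1 held GGAATG, at -226, and 2 held neither. GGAATG was in 14.66% of all 32851 promoters and in 14 of the 85 promoters of junction genes (16.47%), 3 of 15 promoters of genes higher in YAP5SA and 3 of 22 of genes lower there. TGANTCA was in 7.81% of all promoters and in 5 of the 85 (5.88%), 2 of 15 of the higher genes and 0 of 22 of the lower genes. No promoter of a called junction gene held both. A match is a description of the letters only, and counts per gene do not separate the starts of a gene.

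Total counts per library were 17387372 to 25841256, so a floor of 3 counts in a library is worth 0.116 to 0.173 counts per 1e+06 counts of that library (CPM). All other CPM values are scaled between libraries by the TMM method. Yap1, whose counts may or may not include transgene reads, averaged 139.8 CPM in YAP5SA and 118 CPM in Ctrl libraries (log2 fold change 0.25, SE 0.08, edgeR adjusted p = 0.0111). All 10 YAP target genes on a list of common targets were higher in YAP5SA, among them Ccn1 (log2 fold change 3.76, SE 0.09), Axl (3.57, SE 0.15) and Amotl2 (2.33, SE 0.07). The groups also separated completely on sex-linked transcripts: Xist had 0 to 8 counts in YAP5SA and 8436 to 12237 in Ctrl libraries, and 4 genes of the Y chromosome (Ddx3y, Eif2s3y, Kdm5d and Uty) had 880 to 3854 counts in YAP5SA and 0 in Ctrl libraries. Genotype and these transcripts cannot be told apart in the design. Markers of epithelium summed to 9150 to 10829 CPM in YAP5SA and 15488 to 16988 CPM in Ctrl libraries. They did not all fall: Krt8, Krt19 and Cdh1, itself a junction gene, were lower, Krt18 was not called and Epcam was higher. All 5 gastric epithelial markers fell: Gkn1, Gkn2, Tff1, Muc5ac and Cldn18, itself a junction gene. Together they summed to 3997 to 5671 CPM in YAP5SA and 37061 to 61437 CPM in Ctrl. Markers of mesenchyme (0.572 to 1.04 against 0.282 to 0.770 CPM, with Col1a2 at 0), smooth muscle (0.593 to 1.20 against 0.113 to 0.417 CPM) and endothelium (0.213 to 0.730 against 0.670 to 1.81 CPM) were near 0 in YAP5SA and in Ctrl libraries alike. Of 5 leukocyte markers, Csf1r and Cd68 rose, Ptprc had 3 counts in all YAP5SA and 15 in all Ctrl libraries, and Adgre1 had 0. The leukocyte list summed to 66.4 to 73.2 CPM in YAP5SA and 8.57 to 17.9 CPM in Ctrl libraries, and its part in the results was not tested.

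Of the 50 junction genes tested, 41 differed between the groups, 22 of them higher and 19 lower in YAP5SA than in Ctrl cultures (edgeR quasi-likelihood test, adjusted p under 0.05). Among all 13812 genes tested the same rule called 64.5%, with 33.1% higher and 31.3% lower. The share of junction genes called was thus 82.0%, on genes that were counted more: the median level was 64.7 CPM for the 50 junction genes and 19.1 CPM for all genes tested. Changes larger than 2-fold were found in 18 of the 50, 12 higher and 6 lower, against 25.5% of all genes. The groups did not overlap in 36 of the 50, against 58.7% of all genes. The median log2 fold change was 0.02 for the junction genes and 0.02 for all genes, and the median of its size was 0.80 and 0.52, so the junction genes moved in both directions. Of the 50 genes, 5 (Ctnnd2, Cldn6, Gjb5, Cldn8 and Gja5) reached the cutoff of the filter in all 4 YAP5SA but not in all 4 Ctrl libraries. These are said below to be tested through their YAP5SA level alone, a route that favours genes with a difference. Without such genes, a count added after seeing the data, 36 of 45 junction genes were called (80.0%), 17 higher and 19 lower, against 64.8% of 11971 genes. Changes over 2-fold were then found in 13 of 45 (28.9%), 7 higher and 6 lower, against 20.2% of the 11971 genes, and the groups did not overlap in 31 of 45 (68.9%), against 58.8%. With scaling by library size alone, which moves the median of all genes to 0.19, the split was 24 higher and 14 lower among junction genes and 5742 higher and 3201 lower among all genes.

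**Figure D1:**
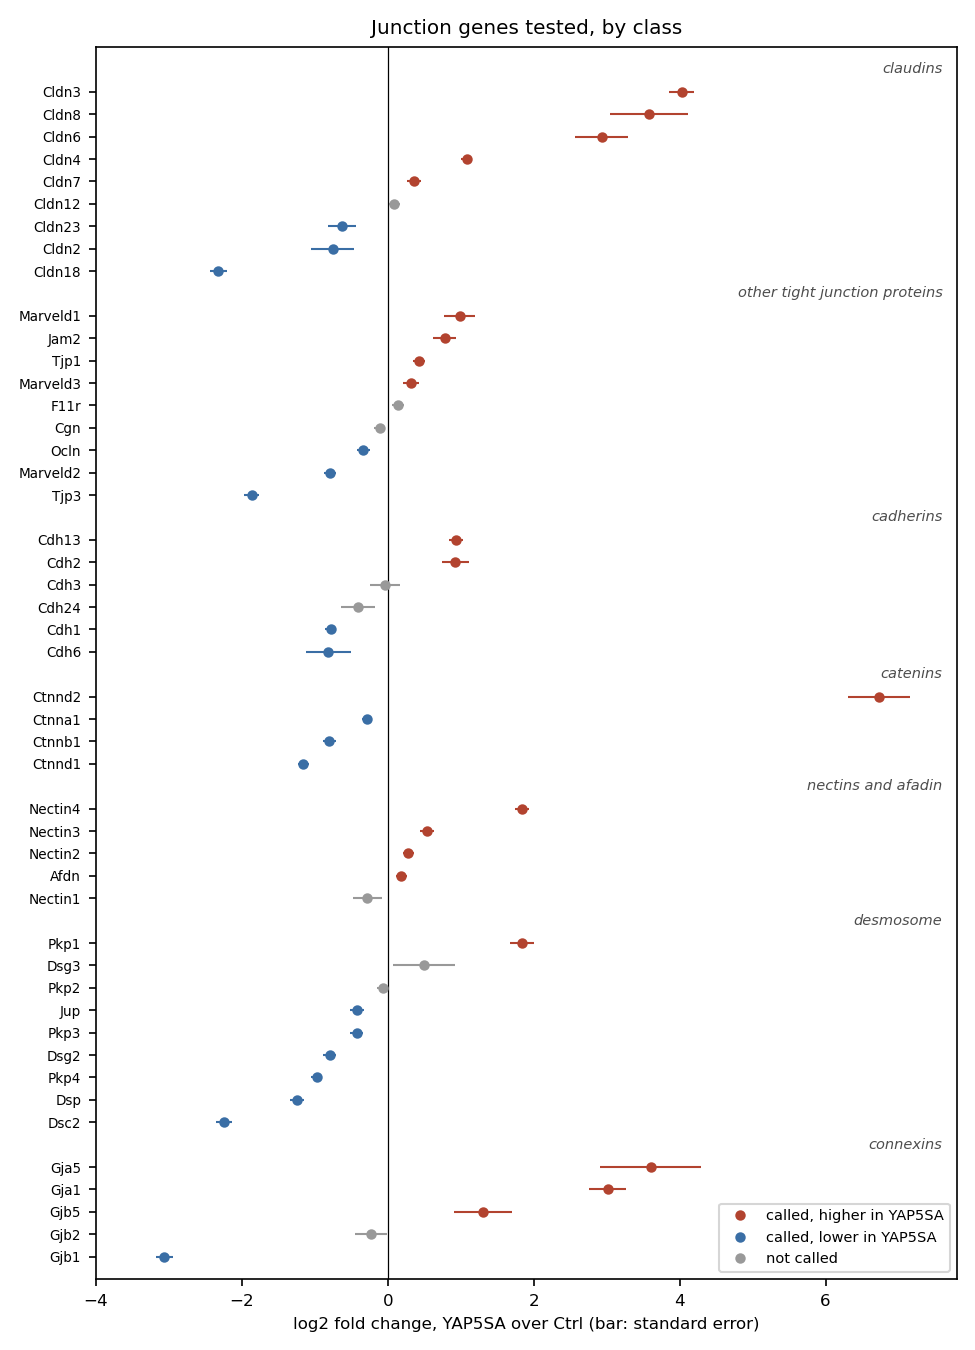
Log2 fold change, YAP5SA over Ctrl, of 47 of the 50 junction genes tested, by class, with bars for 1 standard error and grey points for genes that did not pass the test. The changes run both ways in most classes, between -3.06 for Gjb1 and 6.73 for Ctnnd2.

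In total RNA the junction genes took a smaller share in YAP5SA cultures. They held 0.859 to 0.953% of all counts in YAP5SA libraries and 1.31 to 1.42% in Ctrl libraries. Without Cldn18 the shares were 0.785 to 0.858% and 1.01 to 1.04%, and without Cldn18, Cdh1 and Ctnnb1 they were 0.545 to 0.594% and 0.599 to 0.651%. Most of the gap thus lay in 3 abundant genes. Summed by class, claudins were at 1331 ± 118 CPM in YAP5SA and 4081 ± 437 CPM in Ctrl (SD, n = 4 each), and desmosome genes at 991 ± 59.8 and 1980.1 ± 164 CPM. The nectins and afadin were the class with the higher sum in YAP5SA, 628 ± 20.2 CPM against 453 ± 32.4 CPM in Ctrl.

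**Figure D2:**
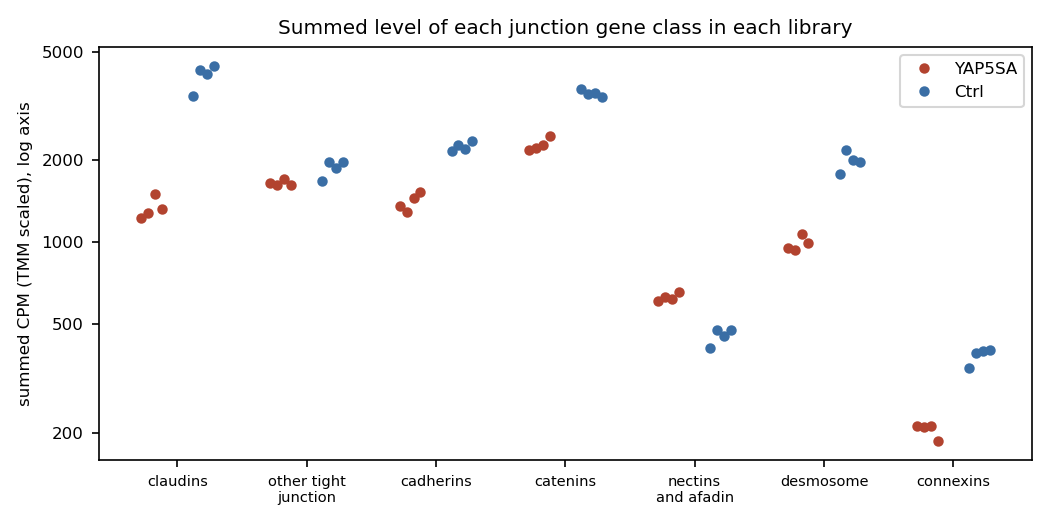
Summed level in CPM, on a log axis, of each of the 7 classes in every library, YAP5SA left of Ctrl, each point a library. The claudin sum was 1225 to 1498 CPM in YAP5SA and 3451 to 4440 CPM in Ctrl libraries, and the ranges overlapped in the other tight junction proteins alone.

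The claudins changed in make-up: the main gastric claudin fell about 5-fold while Cldn3, Cldn4 and Cldn7 rose. Of 9 claudins tested, 5 were higher, 3 lower and 1 did not pass the test (88.9% called, against 64.5% of all genes). Cldn6 and Cldn8, 2 of the 5, were tested through their YAP5SA level alone; without them 3 were higher and 3 lower. Cldn18, the claudin of gastric and lung epithelium, had 639.6, 702, 879 and 717 CPM in the YAP5SA libraries, against 3003, 3912, 3772 and 4007 CPM in the Ctrl libraries. Every YAP5SA library was below every Ctrl library, and the log2 fold change was -2.32 (SE 0.12, adjusted p = 6.66e-10). In bulk RNA fewer cells of a type and less RNA per cell cannot be told apart. The gastric markers Gkn1, Gkn2, Tff1 and Muc5ac, named above with Cldn18, were lower in the same libraries with log2 fold changes of -3.64, -3.74, -3.17 and -3.63, and their part in the fall of Cldn18 was not tested.

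Cldn4, a sealing claudin of many simple epithelia, had 273, 274, 304 and 258 CPM in the YAP5SA libraries, against 135, 128, 124 and 137 CPM in the Ctrl libraries. The groups were apart, with a log2 fold change of 1.08 (SE 0.07, adjusted p = 1.71e-08). Its neighbour on chromosome 5, Cldn3, also a sealing claudin, had 40.6, 40.7, 47.7 and 44.7 CPM in the YAP5SA libraries, against 1.64, 3.79, 2.71 and 2.51 CPM in the Ctrl libraries. It was the called claudin with the highest fold change (log2 fold change 4.03, SE 0.17, adjusted p = 1.73e-10), rising 16.3-fold in mean CPM. Cldn6, known from embryonic epithelia, had 4.36, 5.20, 6.45 and 4.20 CPM in the YAP5SA libraries, against 1.30, 0.474, 0.625 and 0.223 CPM in the Ctrl libraries, a log2 fold change of 2.93 (SE 0.36, adjusted p = 7.66e-06). Cldn8, a claudin of tubular and glandular epithelia, was near the detection limit in Ctrl, with 1.33 ± 0.440 CPM in YAP5SA and 0.106 ± 0.0925 CPM in Ctrl libraries (log2 fold change 3.58, adjusted p = 4.74e-05). Cldn7, which lies along the lateral membrane, had 111, 106, 116 and 125 CPM in the YAP5SA libraries, against 82.3, 83.7, 80.5 and 109.9 CPM in the Ctrl libraries. Its groups overlapped, because Ctrl replicate 4 stood above the other Ctrl libraries, and the test passed by a smaller margin (log2 fold change 0.36, SE 0.10, adjusted p = 0.00605).

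Cldn2, which forms a cation pore in leaky epithelia, had 34.1, 35.2, 29.6 and 40.8 CPM in the YAP5SA libraries, against 109, 26.9, 44.2 and 55.7 CPM in the Ctrl libraries. The Ctrl values were spread widely and overlapped those of YAP5SA. The log2 fold change of -0.76 (SE 0.30, adjusted p = 0.0390) rested on Ctrl replicate 1: without it the value was -0.30 (adjusted p = 0.170), and the call was also lost without YAP5SA replicate 1, 2 or 3, by library size scaling and in DESeq2 (adjusted p = 0.100). Cldn23 was lower (log2 fold change -0.63, SE 0.19, adjusted p = 0.0110), a call lost by library size scaling (adjusted p = 0.0512). Cldn12 did not pass the test, with 100.3 ± 11.2 CPM in YAP5SA and 94.6 ± 6.35 CPM in Ctrl libraries (adjusted p = 0.409), and was called higher by library size scaling (log2 fold change 0.26).

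On levels per length, that is CPM per kilobase of exon, Cldn18 held 35.8% ± 2.23 of the summed claudin level in YAP5SA and 82.2% ± 2.59 in Ctrl libraries. Cldn4 held 33.3% ± 1.56 in YAP5SA and 7.27% ± 0.918 in Ctrl, and Cldn7 12.8% ± 1.10 and 4.57% ± 0.559. The same sum gave Cldn3 7.51% ± 0.228 in YAP5SA and 0.209% ± 0.0586 in Ctrl. Cldn18 and Cldn4 were thus near each other in YAP5SA cultures, at 165 ± 22.9 and 153 ± 10.6 CPM per kilobase, whereas in Ctrl cultures they were at 824 ± 103 and 72.2 ± 3.36. The ratio of Cldn4 to Cldn18 CPM was 0.427, 0.390, 0.346 and 0.359 in YAP5SA libraries, against 0.0449, 0.0326, 0.0330 and 0.0343 in Ctrl libraries.

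**Figure D3:**
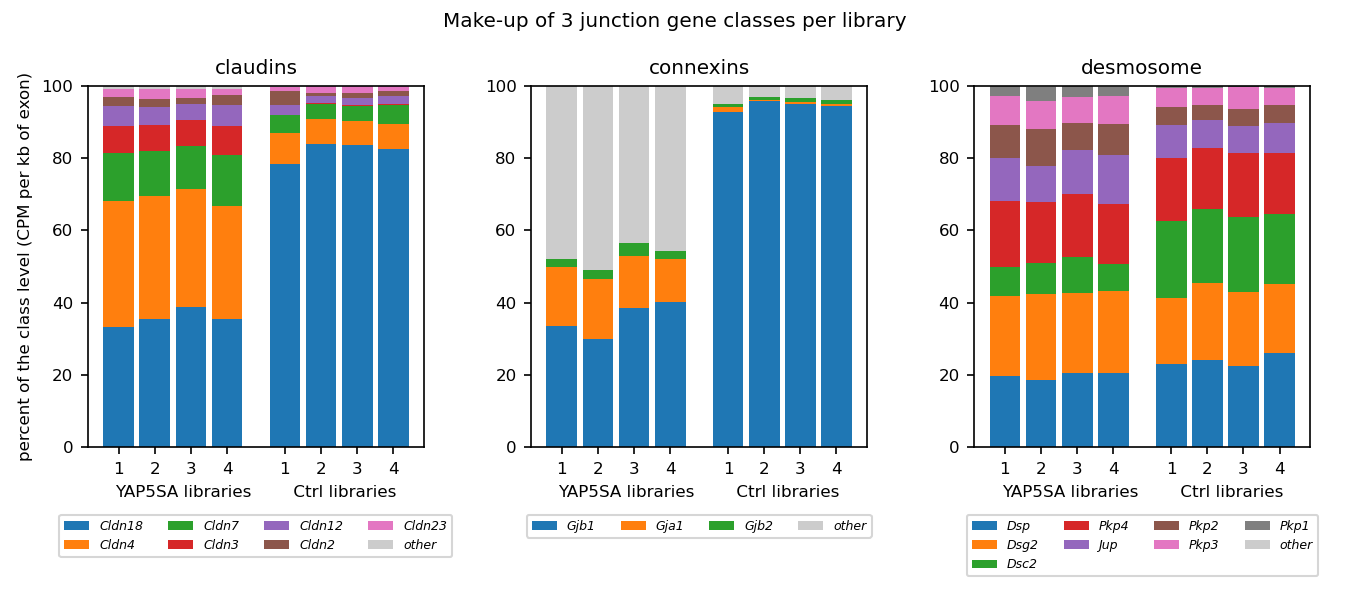
Make-up of the claudin, connexin and desmosome classes, as the percent of the summed level per length (CPM per kilobase of exon) held by each gene in each of 4 YAP5SA and 4 Ctrl libraries. Cldn18 fills on average 35.8% of the claudin bars in YAP5SA and 82.2% in Ctrl, and Gjb1 35.6% in YAP5SA and 94.6% in Ctrl of the connexin bars (grey: all genes not drawn singly), while the desmosome bars differ mainly in Dsc2, with 8.50% in YAP5SA and 20.5% in Ctrl.

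The other tight junction proteins moved in both directions, with 4 of 10 tested genes higher, 4 lower and 2 not called. The share called was 80.0%, against 64.5% of all genes. Their summed level was 1651 ± 41.1 CPM in YAP5SA and 1874 ± 133 CPM in Ctrl libraries. Among the cytoplasmic zonula occludens proteins the members divided. Tjp3, the member most restricted to epithelia, had 41.7, 42.6, 51.5 and 45.3 CPM in the YAP5SA libraries, against 136, 180.1, 179 and 163 CPM in the Ctrl libraries. It was the called member with the lowest log2 fold change (-1.87, SE 0.10, adjusted p = 1.74e-09). Tjp1, the founding member of the family, had 479, 462, 503 and 401 CPM in the YAP5SA libraries, against 325, 368, 349 and 329.8 CPM in the Ctrl libraries. It rose, with a log2 fold change of 0.43 (SE 0.08, adjusted p = 0.000357) and no overlap of the groups.

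Of the occludin family of junctional membrane proteins, occludin itself had 253, 272, 266 and 246 CPM in the YAP5SA libraries, against 279, 364, 342 and 319 CPM in the Ctrl libraries. Ocln was lower (log2 fold change -0.33, SE 0.08, adjusted p = 0.00334), a call lost by library size scaling (log2 fold change -0.15, adjusted p = 0.0974). Tricellulin, encoded by Marveld2 beside Ocln on chromosome 13 and placed where 3 cells meet, fell by 0.79 on the log2 scale (adjusted p = 8.30e-07). Marveld1, a relative found in many tissues, was higher with 5.13, 5.62, 7.78 and 5.34 CPM in the YAP5SA libraries, against 3.89, 2.67, 2.29 and 3.24 CPM in the Ctrl libraries (log2 fold change 0.98, adjusted p = 0.00114). Marveld3 was weakly higher (log2 fold change 0.32, adjusted p = 0.0235), with overlapping groups and a call lost without YAP5SA replicate 3 or 4 or Ctrl replicate 2 or 4 (adjusted p up to 0.0945).

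F11r, the junctional adhesion molecule of epithelia and the most counted gene of the class, had 443, 432, 437 and 458 CPM in the YAP5SA libraries, against 344, 405, 396 and 455 CPM in the Ctrl libraries. The groups overlapped and the test did not pass (adjusted p = 0.140), while library size scaling called a log2 fold change of 0.32. Jam2, a relative better known from endothelium, was higher at 9.28 ± 1.06 CPM in YAP5SA against 5.40 ± 0.814 CPM in Ctrl libraries (log2 fold change 0.78, adjusted p = 0.000553). The endothelial markers summed to less than 2 CPM in every library. Cingulin, the plaque protein encoded by Cgn, was at 180.4 ± 14.7 CPM in YAP5SA and 195 ± 15.7 CPM in Ctrl libraries (adjusted p = 0.243). Without Ctrl replicate 1 its log2 fold change of -0.19 was called (adjusted p = 0.0450).

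Among cadherins, Cdh1 fell and Cdh2 and Cdh13 rose, but Cdh1 stayed the main cadherin by far. The test called 4 of 6 cadherins, 2 higher and 2 lower (66.7%, near the 64.5% of all genes). E-cadherin, encoded by Cdh1 and the main adhesion protein of epithelia, had 1193, 1139.7, 1302 and 1361 CPM in the YAP5SA libraries, against 2046, 2187, 2117 and 2249 CPM in the Ctrl libraries. All YAP5SA libraries lay below all Ctrl libraries (log2 fold change -0.78, SE 0.08, adjusted p = 7.25e-07). N-cadherin, encoded by Cdh2 and typical of neural and mesenchymal cells, had 17.3, 15.8, 17.6 and 27.4 CPM in the YAP5SA libraries, against 9.48, 8.06, 10.3 and 13.1 CPM in the Ctrl libraries. The groups were apart and the log2 fold change was 0.93 (SE 0.19, adjusted p = 0.000572), with YAP5SA replicate 4 the highest. The ratio of Cdh1 to Cdh2 CPM was 69.1, 72.1, 74.0 and 49.7 in YAP5SA libraries, against 216, 272, 205 and 171 in Ctrl libraries. On levels per length Cdh1 held 94.2% ± 0.340 of the cadherin sum in YAP5SA and 97.6% ± 0.417 in Ctrl. The 8 mesenchyme markers summed to no more than 1.04 CPM in any library. Of 4 mesothelial markers, Upk3b and Wt1 rose, with 88 counts of Wt1 in all YAP5SA and 0 in all Ctrl libraries, Msln fell, and Lrrn4 had 10 counts in YAP5SA and 1 in Ctrl. The list summed to 2978 to 3287 CPM in YAP5SA and 3651 to 4309.9 CPM in Ctrl libraries, and its part in the rise of Cdh2 was not tested.

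Cdh13, a cadherin held in the membrane by a lipid anchor without a cytoplasmic tail, had 131, 119, 115 and 125 CPM in the YAP5SA libraries, against 74.1, 54.5, 59.3 and 68.9 CPM in the Ctrl libraries. It rose with no overlap of the groups (log2 fold change 0.93, SE 0.10, adjusted p = 1.19e-06). Cdh6, known from kidney tubules, had 2.45, 2.86, 2.82 and 6.20 CPM in the YAP5SA libraries, against 8.52, 4.68, 4.38 and 7.88 CPM in the Ctrl libraries. These groups overlapped, and the log2 fold change of -0.82 (adjusted p = 0.0324) lost its call by library size scaling and without YAP5SA replicate 1, 2 or 3 or Ctrl replicate 1 or 4 (adjusted p up to 0.0950). Without YAP5SA replicate 4 it was -1.23 (adjusted p = 0.00133). P-cadherin, encoded by Cdh3 beside Cdh1 on chromosome 8 and usual in basal cells, had 8.86, 8.64, 9.70 and 11.1 CPM in the YAP5SA libraries, against 14.4, 7.82, 6.84 and 10.5 CPM in the Ctrl libraries. Its groups overlapped fully (adjusted p = 0.871). Cdh24 did not pass either (log2 fold change -0.40, adjusted p = 0.149). Cdh17, the cadherin of intestinal epithelium, was below the filter, with 5, 3, 3 and 1 counts in the YAP5SA libraries and 4, 0, 0 and 4 counts in the Ctrl libraries.

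The catenins bound to cadherin tails fell with Cdh1, and a neural catenin appeared at a low level. Of 4 tested, 3 were lower and 1, Ctnnd2, which was tested through its YAP5SA level alone, was higher. All 4 were thus called, against 64.5% of all genes. Ctnnb1, which encodes beta-catenin, the partner of cadherins and coactivator of Wnt signalling, had 1062, 1153, 1149 and 1311 CPM in the YAP5SA libraries, against 2258, 1991, 2024 and 1860.2 CPM in the Ctrl libraries. The groups did not overlap (log2 fold change -0.80, SE 0.09, adjusted p = 1.76e-06), and the ratio of Ctnnb1 to Cdh1 CPM overlapped between them, at 0.883 to 1.01 in YAP5SA and 0.827 to 1.10 in Ctrl libraries. Ctnnd1, which encodes the catenin that keeps cadherins at the surface, had 146, 143, 155 and 157 CPM in the YAP5SA libraries, against 301, 354, 342 and 341 CPM in the Ctrl libraries. It was the called catenin with the lowest log2 fold change (-1.16, SE 0.07, adjusted p = 8.54e-09), and its ratio to Cdh1 was 0.115 to 0.125 in YAP5SA against 0.147 to 0.162 in Ctrl libraries. In GENCODE M21 the exons of Ctnnd1 share 4482 bases with Gm28635 on the same strand and those of Ctnnb1 share 759 bases with Ulk4 on the opposite strand, so reads of these stretches cannot be assigned with certainty.

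Ctnna1, which encodes the alpha-catenin that joins the complex to actin, fell less, to 952 ± 22.4 CPM in YAP5SA against 1158 ± 55.0 CPM in Ctrl libraries (log2 fold change -0.28, adjusted p = 0.00205), and this call was lost by library size scaling (adjusted p = 0.166). The ratio of Ctnna1 to Ctnnb1 was 0.741 to 0.905 in YAP5SA and 0.481 to 0.655 in Ctrl libraries. Ctnnd2, a catenin known from neurons, had 7.49, 7.54, 8.74 and 6.75 CPM in the YAP5SA libraries, against 0.169, 0, 0 and 0.112 CPM in the Ctrl libraries. In counts the group totals were 622 in YAP5SA and 5 in Ctrl libraries. It gave the highest fitted log2 fold change of the 50 genes (6.73, SE 0.42, adjusted p = 7.56e-09), a value that depends on the near absence of Ctrl counts. Of 5 markers of neurons and glia, Sox10 and Elavl4 had 0 counts in all libraries, and the list summed to 1.23 to 2.83 CPM in YAP5SA and 3.79 to 4.58 CPM in Ctrl libraries.

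Nectins are immunoglobulin-like adhesion proteins tied to actin by afadin. Of the 4 nectins, 3 were called higher and 1 was not called (75.0% called, against 64.5% of all genes). Afadin, encoded by Afdn, was called higher by a narrow margin. Nectin4, known from placenta and from several carcinomas, had 121, 136, 126 and 131 CPM in the YAP5SA libraries, against 30.9, 37.0, 42.7 and 32.4 CPM in the Ctrl libraries. It rose with the groups far apart (log2 fold change 1.84, SE 0.10, adjusted p = 1.63e-09). Nectin3 (log2 fold change 0.54, adjusted p = 0.000281) and Nectin2 (log2 fold change 0.28, adjusted p = 0.00605) rose less. Nectin1, a partner of Nectin3, had 3.45, 2.86, 3.84 and 3.06 CPM in the YAP5SA libraries, against 4.74, 3.49, 4.34 and 3.41 CPM in the Ctrl libraries. Its groups overlapped (adjusted p = 0.233). Afdn had 219, 216, 219 and 225 CPM in the YAP5SA libraries, against 173, 215, 185 and 200.4 CPM in the Ctrl libraries. Afdn passed narrowly (log2 fold change 0.19, SE 0.08, adjusted p = 0.0449), and the call was lost in DESeq2 (adjusted p = 0.0582), by RLE scaling, with no filter, without the genes above 1% of a library and without any single library other than Ctrl replicate 2.

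**Figure D4:**
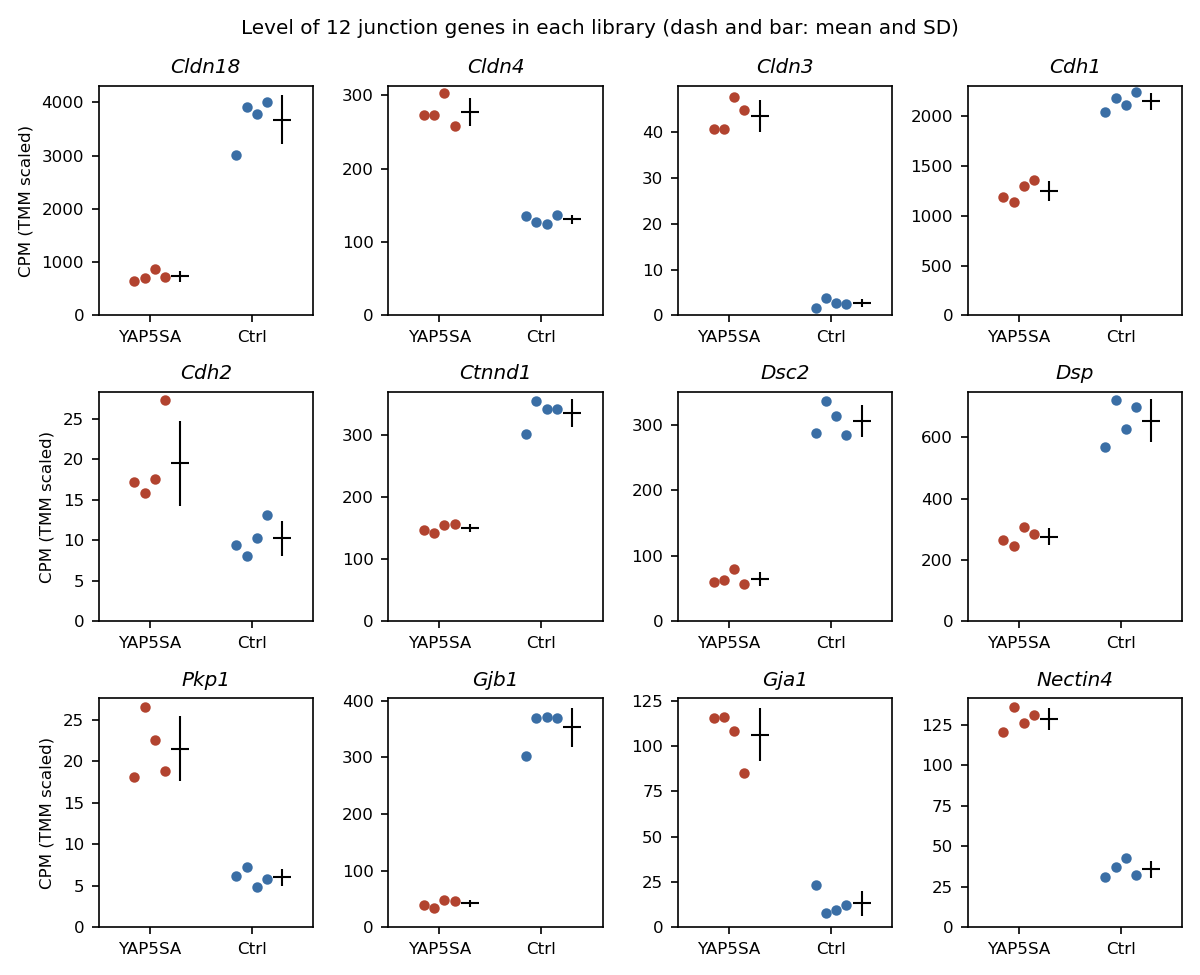
Level in CPM, on linear axes that start at 0, of 12 junction genes in each of 4 YAP5SA libraries (left) and 4 Ctrl libraries (right), with the mean and SD as a dash and bar. Cldn18, Cdh1, Ctnnd1, Dsc2, Dsp and Gjb1 are lower and Cldn3, Cldn4, Nectin4, Cdh2, Pkp1 and Gja1 higher in every YAP5SA library than in any Ctrl library.

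Among the genes of desmosomes, which tie keratin filaments of neighbouring cells together, 6 of 9 tested were lower, 1 higher and 2 not called. The share called was 77.8%. Among all genes 64.5% were called, and 31.3% were lower. The desmosomal cadherin Dsc2 had 59.5, 62.8, 79.2 and 56.3 CPM in the YAP5SA libraries, against 288, 336, 313 and 284 CPM in the Ctrl libraries. It was the called member with the lowest log2 fold change (-2.24, SE 0.11, adjusted p = 4.11e-10), and its partner Dsg2 fell by 0.80 on the log2 scale (adjusted p = 4.91e-06). Desmoplakin, encoded by Dsp, which binds the keratin filaments, had 266, 246, 308 and 285 CPM in the YAP5SA libraries, against 569, 723, 627 and 697 CPM in the Ctrl libraries. The groups were apart (log2 fold change -1.24, SE 0.09, adjusted p = 5.16e-08). In GENCODE M21 Dsp shares 499 exonic bases with Gm10129 and Dsg2 330 with Gm16090, both on the opposite strand. The simple epithelial keratins Krt8 and Krt19 fell in the same libraries (log2 fold changes -1.17, SE 0.10, and -1.03, SE 0.07), while Krt18 did not pass the test (0.11, SE 0.08).

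Plakoglobin, encoded by Jup and shared by desmosomes and adherens junctions, had 105, 88.2, 121 and 127 CPM in the YAP5SA libraries, against 151, 151, 138 and 151 CPM in the Ctrl libraries. The YAP5SA values were all lower (log2 fold change -0.42, SE 0.10, adjusted p = 0.00224). Plakophilins, the plaque proteins beside desmoplakin, divided. Pkp4 (log2 fold change -0.97, SE 0.08, adjusted p = 1.17e-07) and Pkp3 (log2 fold change -0.43, SE 0.09, adjusted p = 0.000838) were lower. Pkp2 was at 68.0 ± 5.26 CPM in YAP5SA and 71.4 ± 2.31 CPM in Ctrl libraries (adjusted p = 0.426). Pkp1, usual in stratified epithelium, had 18.2, 26.5, 22.6 and 18.8 CPM in the YAP5SA libraries, against 6.15, 7.29, 4.84 and 5.87 CPM in the Ctrl libraries. It rose with no overlap of the groups (log2 fold change 1.84, SE 0.16, adjusted p = 2.13e-07). Dsg3, also of stratified epithelium, was at 1.50 ± 0.850 CPM in YAP5SA and 1.07 ± 0.458 CPM in Ctrl libraries and did not pass the test (adjusted p = 0.323). The 5 markers of squamous or basal epithelium summed to 5.54 to 13.9 CPM in YAP5SA and 11.2 to 13.1 CPM in Ctrl libraries. Of them Trp63 had 0 counts in all YAP5SA and 1 count in all Ctrl libraries, and Krt5 had 4 and 124 counts. Krt14 was lower, with 30 and 149 counts. Krt13 (178 and 226 counts) and Krt6a (432 and 413 counts) were present in both groups and not called.

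Gjb1 fell and Gja1 rose among the connexins, and Gjb1 alone held nearly all of the class level in Ctrl cultures but not in YAP5SA cultures. The test called 6 of 7 connexins, 5 higher and 1 lower (85.7%, against 64.5% of all genes). Gjb5 and Gja5, 2 of the 5, were tested through their YAP5SA level alone; without them 3 were higher and 1 lower. Gjb1, the main connexin of liver and of several glands, had 39.6, 34.7, 47.7 and 47.3 CPM in the YAP5SA libraries, against 302, 370.2, 371 and 369 CPM in the Ctrl libraries. It was the called member with the lowest log2 fold change of all 50 genes (-3.06, SE 0.11, adjusted p = 3.84e-11). Gja1, the connexin of the widest tissue range, had 116, 116, 108 and 85.1 CPM in the YAP5SA libraries, against 23.4, 7.70, 9.38 and 12.3 CPM in the Ctrl libraries. The groups were apart (log2 fold change 3.01, SE 0.26, adjusted p = 1.82e-07), with Ctrl replicate 1 the highest of the Ctrl libraries. The ratio of Gja1 to Gjb1 CPM was 2.92, 3.34, 2.27 and 1.80 in YAP5SA libraries, against 0.0775, 0.0208, 0.0253 and 0.0333 in Ctrl libraries. In CPM, which does not allow for gene length, Gja1 thus stood above Gjb1 in every YAP5SA library and below it in every Ctrl library. Per kilobase of exon Gja1 was below Gjb1 in every YAP5SA library too, at 10.4 ± 1.41 against 24.8 ± 3.70 CPM per kilobase. This order depended on the length used, as given below.

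Gjb5, a connexin known from skin, was higher. It was near the filter, with 0.998 ± 0.195 CPM in YAP5SA and 0.386 ± 0.188 CPM in Ctrl libraries (adjusted p = 0.0102). Gja5, known from heart and arteries, had 19, 17, 19 and 14 counts in YAP5SA and 0, 0, 5 and 0 counts in Ctrl libraries (log2 fold change 3.60, adjusted p = 0.000399). All of its Ctrl counts came from replicate 3, without which the fitted value was 7.03. In GENCODE M21 Gja5 shares 165 exonic bases with Gpr89 on the opposite strand. Gjb2, a connexin of many epithelia, had 3.59, 4.01, 5.92 and 3.65 CPM in the YAP5SA libraries, against 4.46, 3.97, 6.25 and 5.25 CPM in the Ctrl libraries. Its groups overlapped (adjusted p = 0.370). On levels per length Gjb1 held 35.6% ± 4.66 of the connexin sum in YAP5SA and 94.6% ± 1.25 in Ctrl, and Gja1 14.9% ± 2.13 and 0.614% ± 0.398. With the longest transcript as length, an alternative chosen after seeing the data, Gja1 held 30.7% in YAP5SA and 1.49% in Ctrl. Gjb1 then held 30.1% in YAP5SA, near the share of Gja1, and 94.05% in Ctrl. By that length Gja1 was above Gjb1 in YAP5SA replicates 1 (33.2% against 27.9%) and 2 (33.8% against 24.8%). It was below Gjb1 in replicates 3 (30.1% against 32.6%) and 4 (25.7% against 35.1%).

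Gjb1 and Cldn2 lie on the X chromosome, as do Gja6 and the claudin genes Cldn34a and Cldn34d. Over 448 X-linked genes tested, 194 were higher and 97 lower, 65.0% were called and the median log2 fold change was 0.24, against 0.02 for all genes. The fall of Gjb1 and the lower Cldn2 were thus against the direction of that median, and the part of sex-linked expression in either was not tested.

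Below the filter, counts were too few for a test in 30 genes. Gja6 had 68 counts in all YAP5SA and 12 in all Ctrl libraries, a ratio per total counts of 5.98 (exact 95% interval 3.21 to 12.1). Cldn1, a barrier claudin of skin, had 26 and 5 (ratio 5.48, 2.07 to 18.3). Cdh11, the cadherin of mesenchyme, had 19 and 1 (ratio 20.0, 3.19 to 833). These intervals cover counting error only. Cdh5, the cadherin of endothelium, had 5 counts in YAP5SA and 44 in Ctrl libraries. Cdh26 had 12 counts in YAP5SA and 0 in Ctrl, and Ctnna3 18 and 0. Against a floor of 3 counts over the Ctrl group their ratios per total counts were 4.22 and 6.33, with no allowance for error in the YAP5SA counts. Of the 18 Ctnna3 counts, 11 came from YAP5SA replicate 4. Cldn9 had 37 and 38 counts, and Cdh10 1 and 16. Besides these and Cdh17, the other 21 genes below the filter had at most 8 counts in all YAP5SA and at most 13 in all Ctrl libraries. Among them were Cldn10, Cldn15, Cldn19, Cldn24, Cldn34a, Jam3, Cdh4, Cdh8, Cdh15, Cdh16, Cdh23, Ctnna2, Dsc3, Dsg1c, Dsg4, Gja3, Gja4, Gjb6 and Gjc1. A fit with no filter called 6 of these 30 genes, and 9716 of all 26206 genes with counts. It called Gja6, Cdh11, Cdh26 and Ctnna3 higher, and Cdh5 and Cdh10 lower. Of the 16 Ctrl counts of Cdh10, 11 came from replicate 3.

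At 0 counts in every library were the claudins Cldn5, Cldn11, Cldn13, Cldn14, Cldn16, Cldn17, Cldn20, Cldn22, Cldn25 and Cldn34d, the cadherins Cdh7, Cdh9, Cdh12, Cdh18, Cdh19, Cdh20 and Cdh22, the desmosomal genes Dsc1, Dsg1a and Dsg1b, and the connexin Gjc3. Several of these are known from other tissues, such as Cldn5 from endothelium, Cldn11 from myelin, Cldn16 from kidney and Dsg1a from skin.

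Other genes of the pathway were read from lists that also hold proteins near the junction. Their counts stand against 33.1% higher and 31.3% lower among all genes, 64.5% called in all. Of 16 tested genes of apical polarity complexes, which place the junctions along the cell side, 8 were higher and 4 lower (75.0% called). Those with the smallest p were Pard6g (log2 fold change 3.84, SE 0.21), Dlg1 (0.86, SE 0.06) and Prkci (0.86, SE 0.07), all higher. Of 27 plaque and adaptor proteins, 12 were higher and 8 lower (74.1% called), led by Amotl2 (2.33, SE 0.07), a scaffold that binds YAP and is itself a YAP target, with Lima1 (-1.57, SE 0.09) and Camsap3 (-1.47, SE 0.13) lower. Of 19 other membrane proteins of junctions, 10 were higher and 5 lower (78.9% called), and Cadm1 (2.66, SE 0.10) and Ildr1 (2.51, SE 0.11) were among the higher. Epcam, which binds Cldn7 in the membrane, was also higher, at 592 ± 24.0 CPM in YAP5SA and 296 ± 26.4 CPM in Ctrl libraries.

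Most repressors of Cdh1 known from epithelial to mesenchymal transition were nearly absent. Snai1 had 2 counts in all YAP5SA and 0 in all Ctrl libraries, Snai2 3 and 2, Zeb1 6 and 4 and Twist1 13 and 0, while Zeb2 and Twist2 had 0. Of the 3 genes of this list that were tested, Tcf4 (-1.53, SE 0.10) and Snai3 (-0.91, SE 0.26) were lower and Tcf3 (0.22, SE 0.11) did not pass. Of 16 tested transcription and splicing regulators of epithelial junction genes, 2 were higher and 12 lower (87.5% called, against 64.5% of all genes). Hnf4a, a nuclear receptor of gut and liver epithelium, was at 56.6 ± 3.11 CPM in YAP5SA and 242 ± 20.1 CPM in Ctrl libraries (log2 fold change -2.10, SE 0.08, adjusted p = 5.62e-11). Foxa3 (-3.08, SE 0.14) and Klf4 (-2.97, SE 0.14) had the next smallest p.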

How the data were processed

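RNA was sequenced from 8 organoid cultures of mouse embryonic hindstomach epithelium, 4 Shh-Cre;YAP5SA and 4 Shh-Cre. The authors deposited raw counts per gene and library. The submitters' processing notes name cutadapt, HISAT2 2.0.1, HTSeq 0.6.1 and build mm9. Annotation, strand setting and filters were not given in the sources used here. Per the labels' protocols, libraries were paired-end, 150 bases an end.

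The test was run with edgeR 4.0.16 in R 4.3.3: filterByExpr (minimum count 10, minimum total 15) kept 13812 of 26206 genes with counts, libraries were scaled by TMM, and the quasi-likelihood test was two-sided with Benjamini-Hochberg adjustment over all genes tested at 0.05. Adjusted p-values in the report are of this test unless another is named. CPM values are TMM-scaled, with SD over 4 libraries. Standard errors are the log2 fold change over the square root of F. Replicates of a group differed by more than sampling noise (chi-square per degree of freedom 4.69 to 34.9), so none were merged. Lengths and overlaps are from GENCODE M21 (GRCm38) by symbol, 100 of 101 genes matching. Intervals cover counting error only, and floors leave out that of the YAP5SA counts.

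The members and gene lists were chosen with earlier results of these data known. Genes described with values in every library are, by class, the called members with the highest and lowest log2 fold change (mean at least 1 CPM), the most counted member, and well-known junction genes. Other members have a fold change or a count, and of each other list the 3 genes with the smallest p. Some genes this rule takes, and some other members, are not named here. Further list genes and markers were picked with their values in view. The fit was tested on simulated data. Alternatives were RLE and library size scaling, DESeq2 1.42.0, no filter, the replicate number as a block, a minimum of 1 CPM in 4 libraries, no genes above 1% of a library, and each library left out.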

Additional observations from a re-analysis of the deposited data

Results flagged for a closer look

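Of 100 groups of 4 libraries (50 tested genes in YAP5SA and in Ctrl), 7 held a library far from the other 3, where chance flags about 1 group in 20. In YAP5SA, Cdh2 was 27.4 CPM in replicate 4 against 15.8 to 17.6 CPM in the others, and Cdh6 was 6.20 CPM in the same replicate against 2.45 to 2.86 CPM. Without YAP5SA replicate 4 the log2 fold change of Cdh2 was 0.71 (adjusted p = 0.00125) and that of Cdh6 -1.23 (adjusted p = 0.00133). Jam2 was 10.9 CPM in YAP5SA replicate 1 against 8.63 to 8.94 CPM.

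In Ctrl, Gjb1 was lowest in replicate 1, at 302 CPM against 369.2 to 370.8 CPM, and Jup lowest in replicate 3, at 137.7 CPM against 150.5 to 150.7 CPM. Cldn7 was highest in Ctrl replicate 4, at 109.9 CPM against 80.5 to 83.7 CPM, and without that library its log2 fold change was 0.46 (adjusted p = 0.000253). Gja5 was 0.208 CPM in Ctrl replicate 3, where its 5 Ctrl counts lay, and 0 in the others.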

How the results depend on the processing

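Of 747 combinations of a tested junction gene and an alternative, 709 kept their direction and their side of the threshold, 30 lost the call, 3 gained one and 5 turned the sign of a log2 fold change near 0, none of which was called. These 5 were Pkp2 (0.10), Cdh3 (0.13) and Cgn (0.064) by library size scaling, and Cdh3 without YAP5SA replicate 2 (0.004) and without Ctrl replicate 1 (0.17). Leaving out a library moved Cdh3 between -0.20 and 0.17. The alternatives called 38 to 46 junction genes, and leaving out a library 39 to 41, so every count lay within 1.5 times the 41 reported. Calls lost are given beside their genes. With the replicate number as a block, 41 junction genes (22 higher, 19 lower) and 9174 of all genes were called. Libraries of the same number deviated together weakly (correlations 0.0463 to 0.281). With no reference for these values, they cannot decide whether the samples were paired, and no label says that the numbers pair them. With the longest transcript as length, Cldn4 held 30.5% of the claudin level and Gjb1 30.1% of the connexin level in YAP5SA, and Cdh1 89.1% of the cadherin level in YAP5SA and 95.9% in Ctrl. At this depth, the 30 genes below the filter carry few counts, and their differences rest on counting intervals.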

Other observations

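Some junction genes lie next to each other in the genome, as seen in the RefSeq order of genes on GRCm38.p6. Cldn4 and Cldn3 on chromosome 5 were both higher in YAP5SA, while Ocln and Marveld2 on chromosome 13 were both lower. Neighbours also parted: Cdh1 was lower beside Cdh3, which did not pass the test, Dsg2 was lower beside Dsg3, which did not pass, and Cldn6 was higher beside Cldn9, which had 37 counts in YAP5SA and 38 in Ctrl libraries. These pairs were chosen after their values were seen, and no test was made of them.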
